A study of Mus musculus with 6 samples.

Results

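The cell death genes of mouse NIH3T3 fibroblasts were examined in cells that express GGCT (gamma-glutamylcyclotransferase, an enzyme of glutathione turnover) from a retroviral vector, against cells that carry the same kind of vector without it. The set holds 40 genes that were chosen by name for their function: the BCL2 family, caspases, death receptors with their adaptors, and genes of pyroptosis and necroptosis. All 40 had a probe on the array. Of these, 34 were bright enough to be tested, among 23774 genes or unnamed transcripts tested in all.

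NIH3T3 is an established line of mouse embryonic fibroblasts. The groups are called GGCT-OE and empty, as in the sample titles, with 3 arrays in each, numbered as experiments 1 to 3. Per the labels, the vector was pCX4bsr, expression was stable after retroviral infection, and all cells were grown with 2% serum. Whether each experiment began from its own infection is not stated, and p-values therefore reflect the variation among these 3 experiments, which may be technical. No age or sex is given for the line, and the labels leave the species of the expressed GGCT unnamed.

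Most cells that die in an orderly way do so by apoptosis. In its mitochondrial route, BH3-only proteins sense damage and bind the pro-survival members of the BCL2 family, which frees the effectors BAX and BAK to open the outer mitochondrial membrane. Cytochrome c then leaves the mitochondria and assembles with APAF1 and caspase-9, while XIAP holds caspases in check. In the receptor route, FAS and the TNF receptors recruit adaptors and caspase-8, with CFLAR as a brake and with RIPK1 able to turn the signal toward survival or, through RIPK3 and MLKL, toward necroptosis. The inflammatory caspases cleave gasdermins and interleukins instead and cause pyroptosis, which is best known from myeloid cells.

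Values are log2 signals relative to the 75th percentile of the same array, so that 0 is the level of a fairly bright probe and each unit is a doubling. A difference is GGCT-OE minus empty on that scale, tested with limma over all 23774 genes or transcripts at a Benjamini-Hochberg adjusted p under 0.05. Each gene was read by its brightest probe. Levels are compared between groups for 1 probe and never between probes.

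The arrays fell on 2 slides, with experiment 1 on slide 1 and experiments 2 and 3 on slide 2, both groups on each. The share of probes well above background was 54.6% to 61.7% per array. Ggct itself stood at -0.14, 0.20 and -0.16 on the GGCT-OE arrays and at -0.57, -0.72 and -0.66 on the empty arrays, a difference of 0.62 ± 0.12 (SE, limma adjusted p = 0.0111), which missed the threshold without experiment 2, without experiment 3 and with no filter on dim probes. All 7 fibroblast markers were well above background on all 6 arrays. Their summed linear level was 569 to 724 on the GGCT-OE arrays and 815 to 955 on the empty arrays, in multiples of the 75th percentile of each array. Of 8 myeloid markers, Ptprc, Adgre1 and Lyz2 were well above background on no array, and 4 (Csf1r, Itgam, Cd14 and Cd68) were so on all 6. The summed level of the list was 25.2 to 31.5 with GGCT and 25.5 to 34.8 without. Most of that sum came from Itgam, which averaged 4.61 ± 0.17 with GGCT and 4.75 ± 0.25 without (SD, n = 3 each).

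The promoters of 4 members are shown because the results turn on them: Casp1, Casp4 and Casp12 are neighbours that differed in opposite directions, and Bcl2l11 was the BH3-only gene that rose. The sequences are RefSeq's for GRCm38.p6, from 250 bases before to 50 bases after the annotated start, all on the plus strand, and 35 of the 40 members had at least 1 in the table used. Casp1 is at chr9:5298267-5298566, Casp4 at chr9:5308599-5308898, Casp12 at chr9:5345226-5345525 and Bcl2l11 at chr2:128125788-128126087. Where a gene had several starts in the table, as Casp4 and Bcl2l11 did, the one with the lowest coordinate is printed. Capitals mark matches, on either strand, to a FOXO site (GTAAACA), an NF-kB site (GGG, any 2 bases, then TTTCC), a GC box (GGGCGG) or an E-box (CACGTG).
Casp1: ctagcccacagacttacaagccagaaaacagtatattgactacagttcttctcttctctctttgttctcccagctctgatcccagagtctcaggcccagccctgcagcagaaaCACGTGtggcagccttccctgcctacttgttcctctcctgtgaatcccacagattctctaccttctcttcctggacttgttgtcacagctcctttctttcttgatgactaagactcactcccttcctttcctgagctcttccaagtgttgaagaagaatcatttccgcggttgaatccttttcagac
Casp4: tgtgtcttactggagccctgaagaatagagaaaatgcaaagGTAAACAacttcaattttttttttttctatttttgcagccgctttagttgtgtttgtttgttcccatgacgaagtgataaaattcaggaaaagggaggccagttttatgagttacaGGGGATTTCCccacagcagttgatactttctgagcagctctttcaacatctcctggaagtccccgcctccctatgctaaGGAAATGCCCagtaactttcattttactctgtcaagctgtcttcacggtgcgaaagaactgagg
Casp12: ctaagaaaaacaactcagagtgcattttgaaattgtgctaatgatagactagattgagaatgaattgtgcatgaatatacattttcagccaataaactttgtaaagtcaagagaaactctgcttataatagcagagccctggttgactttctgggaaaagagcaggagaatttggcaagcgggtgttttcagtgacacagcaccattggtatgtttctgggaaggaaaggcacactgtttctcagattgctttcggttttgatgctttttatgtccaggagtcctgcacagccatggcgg
Bcl2l11: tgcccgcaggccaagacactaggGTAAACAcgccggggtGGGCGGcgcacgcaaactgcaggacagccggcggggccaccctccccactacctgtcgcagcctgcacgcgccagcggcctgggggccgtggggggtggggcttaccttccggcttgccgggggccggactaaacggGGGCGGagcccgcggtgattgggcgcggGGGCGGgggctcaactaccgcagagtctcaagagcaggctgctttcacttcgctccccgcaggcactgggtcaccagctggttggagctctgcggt

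The Casp1 window held 1 E-box and the Casp12 window none of the 4 motifs. The Casp4 window held 1 FOXO match and 2 NF-kB matches. In the Bcl2l11 window 1 FOXO match and 3 GC boxes were found. Among all 32851 promoters of the table, 3.65% held the FOXO letters, 1.63% the NF-kB letters, 35.7% a GC box and 7.15% the E-box. Of the 49 promoters of members, 4, 5, 29 and 5 held them, in the same order of motifs. A match is a run of letters and not evidence that a factor binds there. None of the 3 caspase windows held a GC box, and their GC content was 48%, 42% and 41% in the order printed, against 71% in the Bcl2l11 window.

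With GGCT, 5 of the 34 members tested were higher and 13 lower by their brightest probes, with Cflar counted as lower although its probes went in both directions. That is 52.9% of the members, where 34.8% of all genes or transcripts tested and 39.8% of those with a gene symbol passed the same threshold. By direction, 14.7% of the members were higher and 38.2% lower, against 17.5% and 17.3% over everything tested and 17.7% and 22.1% of those with a symbol. The median difference of the members was -0.19 and that of all tested 0.02. The members were chosen with results of these data known, so these shares are a description and were not tested against each other. As the samples are bulk RNA, fewer cells of a kind and less RNA per cell cannot be told apart.

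For 22 of the 34 members, 64.7%, the GGCT-OE arrays lay wholly above or below the empty arrays, where the figure was 49.3% for all genes or transcripts and 56.0% for those with a symbol. Exact 2-sided permutation tests of single members cannot go below p = 0.1 with 3 against 3 arrays, and that value was reached by each of the 18 members past the threshold. Differences of at least 2-fold were found for 5 called members, 14.7%, against 8.93% of all tested and 10.2% of those with a symbol. They were Casp1 and Bcl2l11, which were higher, and Fas, Casp4 and Casp12, which were lower. Casp1 entered the test through the GGCT-OE arrays alone, and with the normexp background its difference was 0.86, under 2-fold. The counts of members higher and lower were the same without both arrays of experiment 1, where 4607 of all 23774 tested were higher and 4553 lower. Without both arrays of experiment 2 they were 3 higher and 5 lower, beside 1345 and 1676 of all tested. Without both arrays of experiment 3 they were 2 and 4, beside 771 and 1150. With the experiment as a replicate block 6 members were higher and 18 lower, where 53.4% of all genes or transcripts passed.

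**Figure D1:**
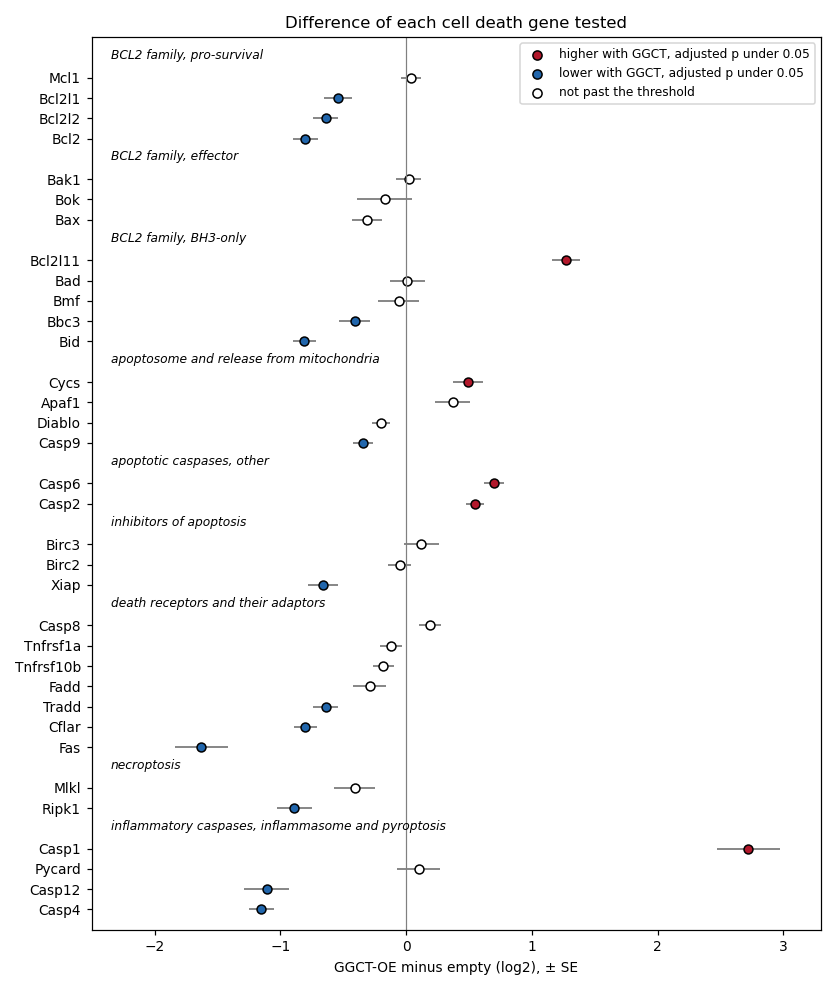
Differences of the 34 tested cell death genes, GGCT-OE minus empty on the log2 scale (horizontal axis), with limma's standard error as bars and genes grouped by role (vertical axis). Filled points passed an adjusted p of 0.05, 5 to the right of 0 and 13 to the left, and open points did not.

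Pro-survival genes of the BCL2 family were lower with GGCT in 3 of 4 cases, where 17.3% of all genes or transcripts tested were lower. Bcl2, the founding member of the family, stood at 1.19, 1.08 and 0.99 on the GGCT-OE arrays, against 2.01, 1.90 and 1.77 on the empty arrays. Every GGCT-OE array was below every empty array, and the difference was -0.80 ± 0.10 (SE, limma adjusted p = 0.00224), 1.74-fold lower. A further Bcl2 probe differed by -0.81. Bcl2l2, which encodes BCL-W, was 1.56-fold lower, at 0.73, 0.87 and 0.85 with GGCT and at 1.31, 1.55 and 1.51 without (adjusted p = 0.00452 by limma). Bcl2l1, the gene of BCL-XL, was read at 4.23, 4.56 and 4.34 on the GGCT-OE arrays and at 4.83, 5.02 and 4.90 on the empty arrays, a difference of -0.54 ± 0.11 (limma adjusted p = 0.0148). Its 5 probes differed by -0.45 to -0.59, all in one direction, although the call of the brightest was lost in 6 of 19 alternatives, with an adjusted p of up to 0.161.

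Mcl1, the remaining pro-survival member, showed no such difference. It lay between 3.72 and 3.81 on the GGCT-OE arrays and between 3.68 and 3.77 on the empty arrays, which overlap, and the difference was 0.04 ± 0.08 (limma adjusted p = 0.758).

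None of the 3 effectors passed the threshold by limma, and 1 of them had an unadjusted p under 0.05. Bax averaged 4.62 ± 0.15 with GGCT and 4.93 ± 0.15 without (SD, n = 3 each), a difference of -0.31 with a limma adjusted p of 0.101, or 0.0360 with the experiment as a replicate block. Bak1 differed by 0.02 ± 0.10 and Bok, a less studied relative, by -0.17 ± 0.22 (SE).

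The BH3-only genes went in both directions. Bcl2l11, which encodes BIM, a potent activator that binds all the pro-survival proteins, rose 2.41-fold with GGCT. It stood at 2.40, 2.17 and 2.42 on the GGCT-OE arrays, against 1.16, 0.97 and 1.05 on the empty arrays, so the groups were separated by about a unit. The difference was 1.27 ± 0.11 (limma adjusted p = 0.000525), with 1.24 on slide 1 and 1.29 on slide 2, and it passed the threshold in all 19 alternatives. Of its 3 other probes, 2 differed by 1.44 and 0.54 (limma adjusted p = 0.00300 and 0.0347, each probe tested alone). The last was well above background on all 3 GGCT-OE arrays, at -4.62, -4.75 and -2.05, and on no empty array, and it did not pass (adjusted p = 0.0538).

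Bid, the BH3-only gene whose protein links caspase-8 to mitochondria, fell 1.75-fold. Its values were 0.93, 0.92 and 0.88 with GGCT and 1.72, 1.61 and 1.82 without, a difference of -0.81 ± 0.09 (limma adjusted p = 0.00128). Bbc3, the p53 target that encodes PUMA, was read at 2.17, 1.83 and 2.05 on the GGCT-OE arrays and at 2.58, 2.31 and 2.39 on the empty arrays (-0.41 ± 0.12, limma adjusted p = 0.0454). That call was close to the threshold and was lost in 9 of 19 alternatives, among them quantile normalization and no filter on dim probes, with an adjusted p of up to 0.235. Bad, a member controlled by growth factor signalling, differed by 0.01 ± 0.14, and Bmf, which is released from the cytoskeleton, by -0.06 ± 0.16 (SE). Bik, Hrk and Pmaip1, the gene of NOXA, had brightest probes that cleared background on no array and were not tested.

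**Figure D2:**
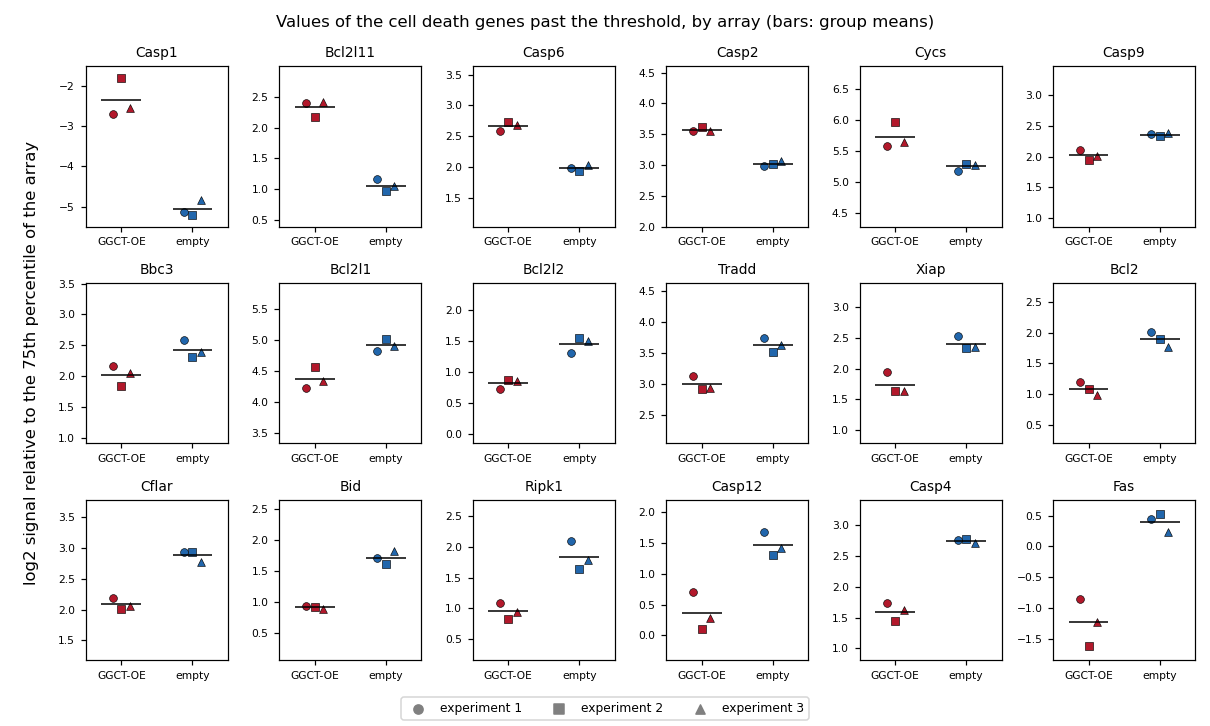
Log2 signal relative to the 75th percentile of the array (vertical axis) for the 18 cell death genes past the threshold, GGCT-OE left and empty right, with 1 point per array, marker shapes for the experiments and bars at the group means. Panels span 2.6 log2 units except that of Casp1, which spans 4; in each the 3 GGCT-OE arrays lie wholly above or wholly below the 3 empty arrays.

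Downstream of mitochondria, the genes of the apoptosome differed in opposite directions. Cycs, somatic cytochrome c, was higher with GGCT, at 5.59, 5.97 and 5.65 against 5.18, 5.29 and 5.28 on the empty arrays (0.49 ± 0.12, limma adjusted p = 0.0257), and its other probe differed by 0.39. The call was lost in 8 of 19 alternatives, the median shift among them. Casp9, the initiator caspase that the apoptosome activates, was lower, at 2.10, 1.95 and 2.01 against 2.36, 2.33 and 2.38 on the empty arrays. This difference of -0.34 ± 0.08 (limma adjusted p = 0.0209) was the smallest among the called members, and it missed the threshold in 8 of 19 alternatives.

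Apaf1, the scaffold of the apoptosome, averaged -1.28 ± 0.20 with GGCT and -1.65 ± 0.17 without (SD, n = 3 each), and its difference of 0.37 had a limma adjusted p of 0.0895, or 0.0188 with the replicate block. Diablo, whose protein is released with cytochrome c and relieves the block by XIAP, differed by -0.20 ± 0.07 (SE), with adjusted p = 0.0851 by limma and 0.0394 with the replicate block.

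Casp2 and Casp6 both rose. Caspase-2 is an initiator that is activated by the PIDDosome, and caspase-6 an executioner known for cleaving nuclear lamins. Casp2 stood at 3.55, 3.61 and 3.55 on the GGCT-OE arrays and at 2.99, 3.02 and 3.06 on the empty arrays, with a difference of 0.55 ± 0.07 (limma adjusted p = 0.00296). Casp6 was read at 2.59, 2.74 and 2.69 with GGCT and at 1.99, 1.93 and 2.03 without, 1.62-fold higher (0.70 ± 0.08, limma adjusted p = 0.00185).

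Among the inhibitors of apoptosis 1 of 3 changed, 33.3% beside 34.8% of all genes or transcripts tested. Xiap, the direct caspase inhibitor, fell to 1.94, 1.64 and 1.64 on the GGCT-OE arrays, against 2.53, 2.33 and 2.35 on the empty arrays, a difference of -0.66 ± 0.12 (limma adjusted p = 0.00821). Its other probe differed by -0.58. Birc2 and Birc3, the ubiquitin ligases that act on RIPK1 at the TNF receptor, had overlapping groups and differences of -0.05 ± 0.09 and 0.12 ± 0.14 (SE), with limma adjusted p of 0.700 and 0.534.

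In the receptor route 3 of 7 genes were lower with GGCT and 0 were higher by limma, and the same 3 had an unadjusted p under 0.05. These are 42.9%, where 34.8% of all genes or transcripts tested were called and 17.3% were lower. Among those with a symbol the shares were 39.8% and 22.1%. Cflar is among the 3 by its brightest probe, although its probes went in both directions. Fas, the death receptor for FAS ligand and a p53 target, had the largest decrease of all 34 members. It stood at -0.85, -1.62 and -1.22 on the GGCT-OE arrays, against 0.45, 0.52 and 0.24 on the empty arrays, more than a unit apart. The difference was -1.63 ± 0.21 (limma adjusted p = 0.00226), 3.10-fold lower, with -1.30 on slide 1 and -1.80 on slide 2. It stayed past the threshold in all 19 alternatives. With the mean of its probes it was -0.84, since the other Fas probe was well above background on no array.

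Tradd, the adaptor of the TNF receptor, fell to 3.13, 2.92 and 2.93 with GGCT, against 3.74, 3.52 and 3.63 without (-0.64 ± 0.10, limma adjusted p = 0.00538). Tnfrsf1a and Tnfrsf10b did not pass the threshold. Tnfrsf1a, the main TNF receptor of fibroblasts, differed by -0.12 ± 0.09 (SE). Tnfrsf10b, the mouse receptor for TRAIL, differed by -0.18 ± 0.08, with adjusted p = 0.137 by limma and 0.0461 with the replicate block. Fadd, the adaptor of FAS, differed by -0.29 ± 0.13 (adjusted p = 0.149, and 0.0333 with the replicate block), and its partner Casp8 by 0.19 ± 0.09 (adjusted p = 0.163, and 0.0503 with the block).

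Cflar encodes c-FLIP, the catalytically inactive relative of caspase-8 that blocks it. By its brightest probe it fell 1.74-fold, to 2.19, 2.01 and 2.05 on the GGCT-OE arrays against 2.93, 2.94 and 2.78 on the empty arrays (-0.80 ± 0.09, limma adjusted p = 0.00167). Its 5 probes did not go one way. With every probe tested on its own, which was added after the data were seen, 2 probes assigned to the transcript NM_207653 differed by -0.80 and -0.84 and the one assigned to NM_001355056 by -0.41 (limma adjusted p = 0.00163, 0.00157 and 0.0234). The probe assigned to NM_009805 differed by 0.62 and that assigned to the noncoding transcript NR_149258 by 0.47 (limma adjusted p = 0.0399 and 0.0160).

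The opposite differences were seen on each array. The NM_009805 probe was at -2.48, -1.90 and -2.28 with GGCT and at -3.06, -2.70 and -2.75 without, whereas the NM_001355056 probe was at -2.40, -2.64 and -2.61 with GGCT and at -2.06, -2.17 and -2.21 without. With the mean of all 5 probes Cflar differed by -0.19 and did not pass (limma adjusted p = 0.0960). The fall holds for the NM_207653 and NM_001355056 probes and not for the others, so no direction is given for the gene as a whole. Which exons the probes read was not analysed here.

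**Figure D3:**
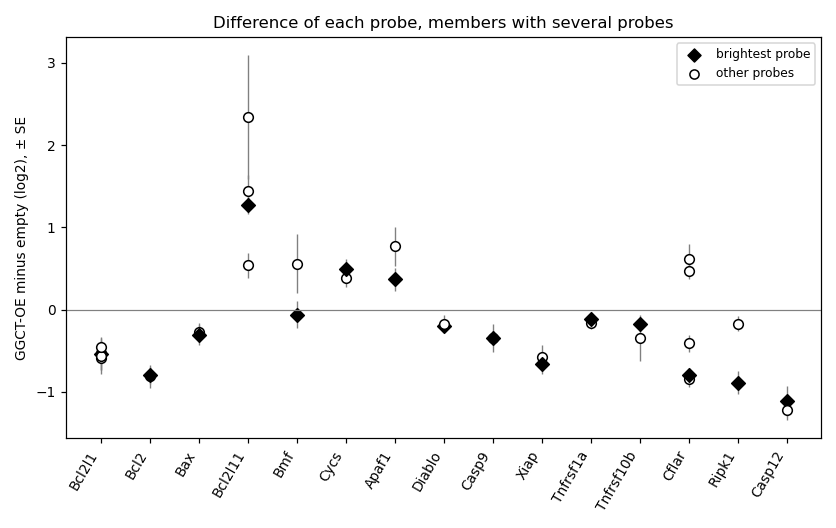
Differences of single probes (vertical axis, GGCT-OE minus empty, log2, bars limma standard errors) for the 15 members with more than 1 probe that passed the filter on dim probes. Diamonds are the brightest probes; in 13 genes all probes lie on one side of 0, and in Bmf and Cflar they lie on both.

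Ripk1, the kinase at the branch between survival, apoptosis and necroptosis, fell to 1.09, 0.82 and 0.94 with GGCT, against 2.09, 1.64 and 1.79 without. The groups were well apart by this probe, with a difference of -0.89 ± 0.14 (limma adjusted p = 0.00545), but the other Ripk1 probe differed by -0.17 ± 0.09 and did not pass on its own (adjusted p = 0.217). With the mean of both probes the difference was -0.53 and passed. Mlkl, whose protein ruptures the plasma membrane in necroptosis, averaged 2.39 ± 0.18 with GGCT and 2.80 ± 0.24 without (SD, n = 3 each). Its groups did not overlap, and its difference of -0.41 had a limma adjusted p of 0.0907, or 0.0144 with the replicate block. Ripk3, the kinase that activates MLKL, was well above background on no array.

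The 3 inflammatory caspases all changed, in both directions, where 34.8% of all genes or transcripts tested were called. Casp1, the protease that matures interleukin-1 beta and interleukin-18 in inflammasomes, was well above background on all 3 GGCT-OE arrays and on no empty array. It stood at -2.69, -1.80 and -2.54 on the GGCT-OE arrays, against -5.14, -5.20 and -4.83 on the empty arrays, so the empty values give only an upper limit. Against the lowest signal that counts as above background on each array, Casp1 was 5.79-fold higher with GGCT. That fold depends on the treatment of background and is not a strict minimum. The measured difference was 2.72 ± 0.25 (limma adjusted p = 0.000759). Casp1 passed in the 18 alternatives that could test it, with differences from 0.86 to 2.92, the lowest with the normexp background. The filter admitted Casp1 through the GGCT-OE arrays alone, so these passes are not support of their own.

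Casp4, known in mouse as caspase-11, senses bacterial lipopolysaccharide in the cytosol, and it was lower. It was read at 1.73, 1.44 and 1.62 with GGCT and at 2.76, 2.77 and 2.71 without, a 2.23-fold decrease (-1.15 ± 0.10, limma adjusted p = 0.000581) that held in all 19 alternatives. Casp12, a relative linked to stress of the endoplasmic reticulum in mouse, fell to 0.70, 0.11 and 0.28, against 1.68, 1.31 and 1.42 on the empty arrays (-1.11 ± 0.18, limma adjusted p = 0.00571), and its other probe differed by -1.22. Pycard, the ASC adaptor that joins sensors to caspase-1, was detected on all arrays and differed by 0.10 ± 0.17 (SE, limma adjusted p = 0.685). Gsdmd, the pore former that caspases 1 and 11 cleave, was above background on 1 GGCT-OE array by 1 of its 2 probes, and the sensor Nlrp3 on 1 GGCT-OE array. Neither was tested.

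Casp1, Casp4 and Casp12 are direct neighbours on chromosome 9, and their promoters are printed above. Among the 4 nearest tested genes on either side of the 3, Gucy1a2 (a subunit of guanylyl cyclase) was higher by 0.94 ± 0.11, and Msantd4 and the dynein gene Dync2h1 were lower by 0.38 ± 0.08 and 0.85 ± 0.08 (SE, limma adjusted p = 0.00167, 0.0166 and 0.000748). The other 5, Cwf19l2, Aasdhppt, Dcun1d5, Tmem123 and Birc2, did not pass, so differences along this stretch were mixed in sign and size. Gucy1a2 was dim, well above background on 2 of 3 empty arrays, and entered the test through the GGCT-OE arrays alone. Birc2 and Birc3 lie further along the same chromosome, and no tested gene from Dcun1d5 to Trpc6, Yap1 included, passed the threshold.

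**Figure D4:**
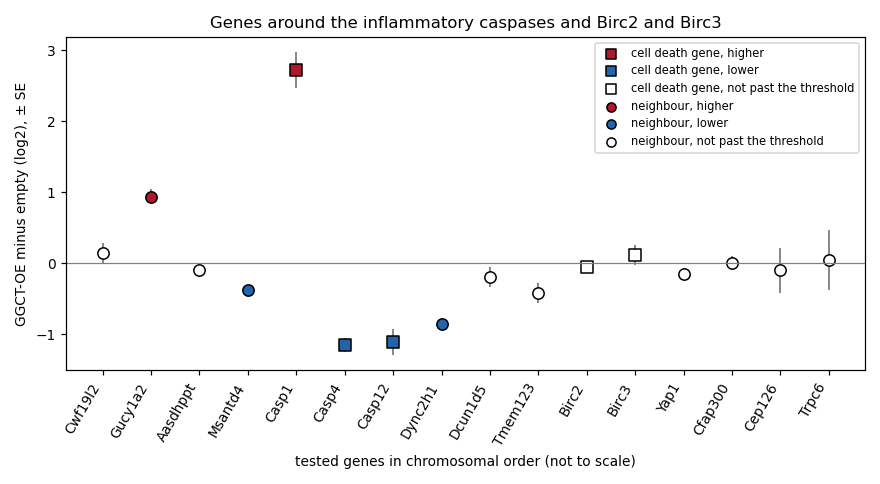
Differences (vertical axis, GGCT-OE minus empty, log2, bars limma standard errors) of the tested genes around Casp1, Casp4 and Casp12 and around Birc2 and Birc3 on chromosome 9, in chromosomal order and not to scale. Casp1 lies at 2.72 beside Casp4 and Casp12 at -1.15 and -1.11, and the genes from Dcun1d5 to Trpc6 were not past the threshold.

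Other genes of the same routes came from lists chosen for their function. Of 19 further inflammasome and pyroptosis genes tested, out of 26 listed, 13 were lower with GGCT and 1 was higher, with a median difference of -0.56. The lower ones include Mefv and P2rx7, which passed the filter through the empty arrays alone. Gsdme, a gasdermin that apoptotic caspases can cleave, fell 3.57-fold, averaging -0.45 ± 0.12 with GGCT and 1.39 ± 0.19 without (SD, n = 3 each). Mefv, the gene of pyrin, was well above background on all empty arrays and on no GGCT-OE array. It was 7.59-fold lower against the lowest signal above background, with a difference of -1.46 under the normexp background. Naip2 and Nlrp1b, sensor genes with close relatives that probes may not fully separate, had differences of -1.12 and -1.07, and Nlrp1b missed the threshold with the mean of its probes. Nlrp1a, of the same family as Nlrp1b, was the 1 listed gene that was higher by its brightest probe (0.85 ± 0.13, limma adjusted p = 0.00451). With the mean of its 2 probes its difference was -0.16 (adjusted p = 0.377), so no direction is given for this gene, and the call was also lost without experiment 2. The count of lower genes was 9 without array 3 of empty and 6 without experiment 3.

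Of 22 further mitochondrial and execution genes tested, 4 were higher and 7 lower (median 0.03). Without array 3 of empty these counts were 2 and 4, and without experiment 3 they were 0 and 1. Birc5, the mitotic protein survivin, rose 1.68-fold, and the co-chaperone gene Bag3 fell 1.51-fold. Endog, a mitochondrial nuclease, and Septin4 were lower, but each was well above background on 2 of 3 GGCT-OE arrays, and the size depended on the background: the differences were -1.69 and -1.42 as reported and -0.54 and -0.52 with normexp. The call of Septin4 was lost with the mean of probes and without experiment 3. Of 22 further genes of TNF superfamily signalling, 5 were higher and 6 lower (median 0.01). Leaving out array 2 or array 3 of empty changed these counts to 1 and 4, and the median shift to 2 and 6. Tnfrsf1b, the other TNF receptor, fell 2.83-fold, to -1.54 ± 0.04 with GGCT against -0.04 ± 0.02 without (SD, n = 3 each, limma adjusted p = 8.7e-05). The linear ubiquitin genes Otulin and Ikbkg fell by 0.58 and 0.56, and Traf3 rose by 0.74.

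Among 9 further necroptosis genes 2 were higher, Ppm1b and Eif2ak2, and 2 lower, Tlr3 and Camk2d (median 0.16). That is 44.4% called, beside 34.8% of all genes or transcripts tested and 39.8% of those with a symbol. No gene of this list was higher with no filter or without array 2 of empty, array 3 of empty or array 3 of GGCT-OE. Camk2d missed the threshold in 10 of 19 alternatives, and with normexp Camk2d and Tlr3 differed by -0.12 and -0.42. Tlr3 passed the filter through the empty arrays alone and was well above background on 1 of 3 GGCT-OE arrays. Of 19 genes tested from a list of p53 targets outside the set, which also holds Trp53 itself, 10 were lower and 1, Tigar, higher (median -0.42). Eda2r, Gadd45a, Rrm2b and Sesn2 were lower by 1.93, 1.66, 1.15 and 0.68. The count of lower targets was 4 without experiment 2 and 3 without experiment 3. Tigar missed the threshold in 8 of 19 alternatives, and Gadd45a did so with the mean of its probes (-0.59). With normexp Eda2r and Rrm2b differed by -1.28 and -0.67. Among p53 targets picked from the set, Fas and Bbc3 were lower and Bax, Tnfrsf10b and Apaf1 did not pass. These are not all the p53 targets of the set. Of 16 NF-kB targets, 5 were higher and 1 lower (median 0.04), 37.5% called beside 34.8% of all genes or transcripts tested. Bcl3, Nfkbie and Ccl2 were higher by 1.20, 0.87 and 0.57, and Cxcl5 was lower by 1.04. The median shift left 2 NF-kB targets higher, as did leaving out array 3 of empty, and Ccl2 missed the threshold in 7 of 19 alternatives.

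Markers of other cell types also moved. Of the fibroblast markers 4 of 7 were lower, Col1a1 by 0.99, Pdgfrb by 0.94 and Col1a2 by 0.69 among them, and Pdgfra was higher by 0.86. Cdh5, an endothelial cadherin that was well above background on no empty array, was 2.18-fold higher against the lowest signal above background. Pecam1 and the keratin gene Krt8 were higher by 0.43 and 1.18. With normexp Cdh5, Pecam1 and Krt8 differed by 0.41, 0.17 and 0.57. Pecam1 passed in 7 of 19 alternatives, and Krt8 in all but those without experiment 2 or 3. The summed endothelial level was 0.226 to 0.271 with GGCT and 0.127 to 0.163 without, and the summed epithelial level 0.227 to 0.327 with GGCT and 0.127 to 0.161 without, with Kdr, Epcam and Cdh1 well above background on no array. Most of the epithelial sum came from Krt8, the 1 tested of 4 epithelial markers, and Krt18 was well above background on 1 GGCT-OE array only. The part of these markers in the differences of cell death genes was not tested. Of the 4 myeloid markers tested, Cd68 passed and was lower by 0.27 (adjusted p = 0.0451), a call that held in 5 of 19 alternatives and in none that left out an array. Csf1r differed by 0.46 ± 0.31, with a limma adjusted p of 0.311, or 0.0128 with the replicate block.

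**Figure D5:**
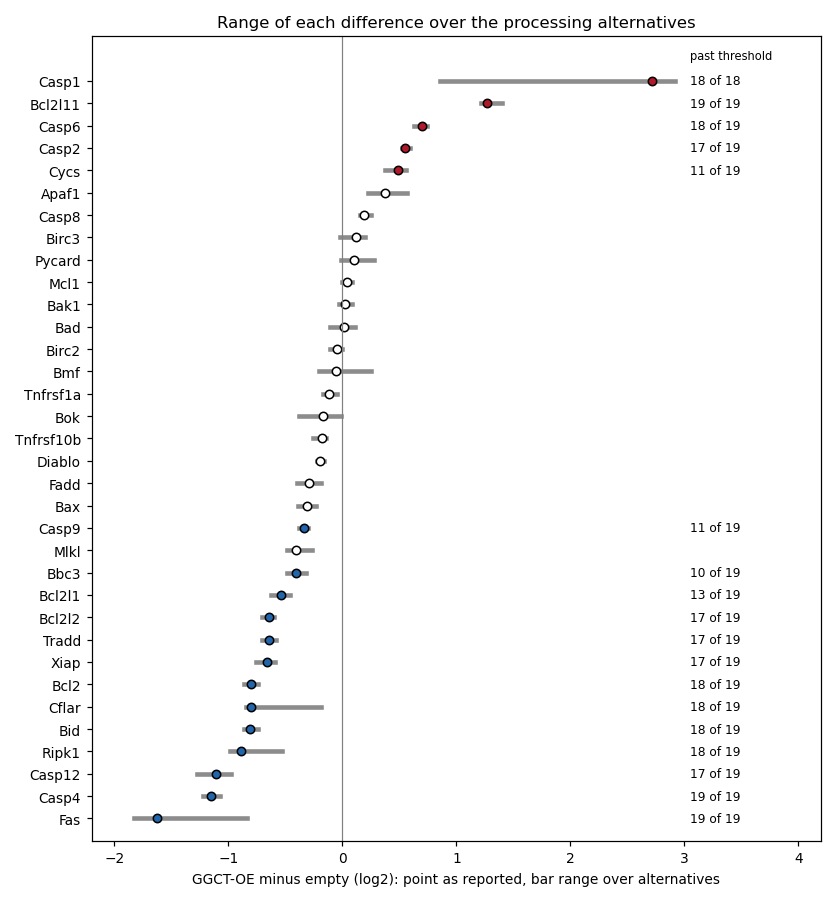
Range of each difference (horizontal axis, GGCT-OE minus empty, log2) over the processing alternatives as bars, with the reported value as a point, filled where it passed the threshold. The right column gives the number of alternatives in which a called gene passed, which is all of those run for Casp1, Bcl2l11, Casp4 and Fas.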

How the data were processed

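Gene expression was measured on 6 Agilent 1-colour arrays, 3 per group. Per the file headers, the deposited intensity of each spot came from version 12.1.0.3 of Agilent's Feature Extraction, and the headers record background subtraction and spatial detrending within each array. The deposited series table holds log2 values that equalled the log2 intensity of each array minus a constant (correlation 1, column medians -3.87 to -3.69). No source used here says how it was made.

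Control spots and outlier-flagged spots (578) were left out, and log2 values of a probe's repeated spots were averaged. RefSeq accessions (GRCm38.p6) named 34504 of the 56570 probes. The grid file names another build, so no coordinates of genes are given beyond the RefSeq promoters. On each array the 75th percentile was subtracted. A gene was its brightest probe, tested where either group had that probe well above background in all 3 experiments. Differences were tested 2-sided, with no block, by lmFit and eBayes of limma 3.58.1 under R 4.3.3, and the procedure was tested on simulated data. The number of arrays limits the precision.

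A fold against the lowest signal above background sets the mean of the bright group against a floor for the dim group. The floor averages, over its arrays, the lowest signal well above background or the probe's own signal where that was higher. That lowest signal is taken over all probes of an array, so such a fold is not a strict minimum. Every member is accounted for, and up to 4 genes with the smallest p are named from each other list. Nlrp1a, Tigar, P2rx7, Trp53 and the markers below background were named after their values were seen. Some genes of the other lists are not reported here by name. The members and lists were chosen with earlier results of these data known.

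Arrays of one experiment moved together around the means of their groups (correlations across genes of 0.731, 0.453 and 0.358 for experiments 1, 2 and 3). The titles' numbers were therefore used as a block in an alternative. The calls reported and the permutation tests do not use this pairing. Experiments 2 and 3 also share slide 2, and arrays of different numbers there correlated too (0.342 and 0.299). Alternatives tried were a median shift, quantile normalization, normexp background (offset 50, on median spot signals, since mean signals were not among the columns used here), the mean of probes, no filter, a filter over all arrays, a trended robust variance, a block for the replicate number or for the slide, leaving out each array or experiment, and the deposited log2 values. Testing every probe alone was added after the data were seen.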

Additional observations from a re-analysis of the deposited data

How the results depend on the processing

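Over 19 alternatives all 18 called members kept their direction, and 4 of them (Bcl2l11, Casp1, Casp4 and Fas) passed the threshold in every alternative that could test them. The alternative with the deposited log2 values, which equalled the intensities minus a constant per array, is no check of its own. It returned the reported counts, 5 members higher and 13 lower. Casp1 could not be tested with a filter over all arrays, since it entered the test through the GGCT-OE arrays alone. With the experiment as a replicate block, 6 members were higher and 18 lower, and no called member was lost. Over all genes the counts were 6490 higher and 6195 lower with the replicate block (53.4% called), 6562 and 6191 with a slide block, and 2218 and 2493 with no filter on dim probes, which tests more transcripts. When single arrays or experiments were left out, the members counted 2 to 5 higher and 4 to 13 lower, and all genes 771 to 4607 higher and 1150 to 4553 lower. The low ends came without both arrays of experiment 3, and the cause was not tested. On slide 2 by itself, without experiment 1, 5 members were higher and 13 lower. Among members that did not pass, the sign of Bak1, Bad, Bmf, Birc3 and Pycard differed between alternatives, and Birc2 reached 0. Outside the set, Nlrp1a turned to -0.16 with the mean of its probes. Dim probes limit Casp1, whose fold rests on a floor and on the treatment of background, and leave Bik, Hrk, Pmaip1, Gsdmd, Nlrp3 and Ripk3 without a test.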
